A study of Rattus norvegicus with 6 samples.

Results

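The genes described here are the 9 of the MHC class II route of antigen presentation that were chosen by name: Cd74, RT1-Ba, RT1-Bb, RT1-Da, RT1-Db1, RT1-DMa, RT1-DMb, Ciita and Ctss. All 9 of 9 were measured, each by a single probeset annotated with 1 gene symbol, among 14506 such genes and 29215 probesets in all. RNA came from glomeruli of male Sprague-Dawley rats, sieved from the cortex without culture and without any treatment of the animals. PEC-enriched isolates, held on the 90 µm sieve, were richer in capsulated glomeruli, which keep Bowman's capsule and its parietal epithelial cells (PECs). PEC-deprived isolates, from the 75 µm sieve, were largely decapsulated glomeruli. Each group had 3 arrays, 1 per preparation, and each preparation came from an individual rat. The methods count 3 animals for these isolations without saying if each gave both fractions. Neither isolate is pure. By the paper's counts every PEC-enriched preparation also held decapsulated glomeruli, at most at a share close to that of capsulated ones. Both isolates hold the glomerular tuft with its endothelium, mesangium, podocytes and resident leukocytes, and both can carry fragments of tubule.

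MHC class II molecules carry peptides from endocytosed proteins to the cell surface, where CD4+ T cells read them. Each is a pair of an alpha and a beta chain. The pair assembles with the invariant chain CD74, which blocks the groove until proteases of the endosome, cathepsin S among them, cut it down to a short remnant. The DM molecule then exchanges that remnant for peptide. CIITA, a coactivator that does not bind DNA itself, switches on the chain genes, CD74 and DM together. Dendritic cells, macrophages and B cells make class II molecules constitutively, and interferon gamma can induce them in endothelium and epithelium. In rats the molecules are RT1.B, the counterpart of human DQ, and RT1.D, the counterpart of human DR.

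The promoters of such genes share a module with an X box, bound by RFX, and a Y box, bound by NF-Y, and CIITA is recruited to these proteins. RefSeq promoters (GRCr8, 250 bases before to 50 bases after the gene start) were at hand for 7 of the 9 genes, all but Ciita and RT1-DMb. The Y box letters TGATTGG, searched on both strands, stood in 5 of these 7 promoters, those of the alpha and beta chains and RT1-DMa, and in 7.06% of all 33469 promoters of that length. The X box letters GCAACNG stood in 4 of the 7, and in 12.2% of all promoters. Both occurred together in 3 of the 7 and in 0.792% of all. The shorter letters CCAAT, which lie within the Y box on its other strand, were found in 7 of the 7 and in 37.5% of all promoters. The 5 stretches of 60 bases around the Y box are shown to let the shared module be seen in genes whose levels are given below, with TGATTGG and, where present, GCAACNG in capitals.
RT1-Da (chr20:4515319-4515378, + strand): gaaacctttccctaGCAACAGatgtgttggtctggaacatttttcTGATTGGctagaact
RT1-Db1 (chr20:4560230-4560289, - strand): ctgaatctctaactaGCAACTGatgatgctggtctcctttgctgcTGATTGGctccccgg
RT1-Ba (chr20:4576967-4577026, + strand): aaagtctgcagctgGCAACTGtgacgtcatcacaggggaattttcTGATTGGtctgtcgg
RT1-Bb (chr20:4604167-4604226, - strand): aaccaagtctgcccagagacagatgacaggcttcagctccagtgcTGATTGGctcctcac
RT1-DMa (chr20:4712387-4712446, - strand): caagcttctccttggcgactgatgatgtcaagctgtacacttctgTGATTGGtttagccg
In RT1-Da and RT1-Ba 24 bases lay between the X box letters and the Y box, and in RT1-Db1 23 bases. The letters are a description of these windows, and binding was not measured.

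The deposited values are RMA expression values on the log2 scale, which run from 2.13 to 13.87 with array medians between 6.69 and 6.75. Correlations between arrays lay between 0.9816 and 0.9937. limma was fitted to every probeset, as PEC-enriched minus PEC-deprived, and at an adjusted p under 0.01 there were 0 calls (0.0% of 29215), while 1361 had an unadjusted p under 0.05 with a lower mean and 1687 with a higher one. The paper's own test, a Bayesian form of the t-test, called 334 probesets at that threshold. Most of the genes it called were higher in PEC-enriched isolates. Levels of different probesets are not comparable, so each gene is compared only with itself. How far each signal stood above background is unknown, since no detection calls were used.

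Of the 9 genes, 8 had a lower mean in PEC-enriched isolates and 1, RT1-Bb, a higher one, and a lower mean was found in 58.2% of all probesets. Their median log2 fold change was -0.34, against -0.027 over all probesets, and 3.95% of probesets lay at or below that median. With limma, 0 of the 9 passed an adjusted p under 0.01. A regularised t-test of the kind named in the methods also called 0 of 9 at that threshold, against 1.14% of all probesets in either direction and 0.178% that were lower. At an unadjusted p under 0.05 there were 2, RT1-DMb and RT1-Ba, both lower, against 4.66% of all probesets in that direction. The regularised t-test had 5 of the 9 there, against 5.46% of all probesets. The same 2 genes were those in which every PEC-enriched array lay below every PEC-deprived array, which occurred in 7.79% of probesets. In this tissue, fewer cells that carry these transcripts and less transcript per cell cannot be told apart.

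**Figure D1:**
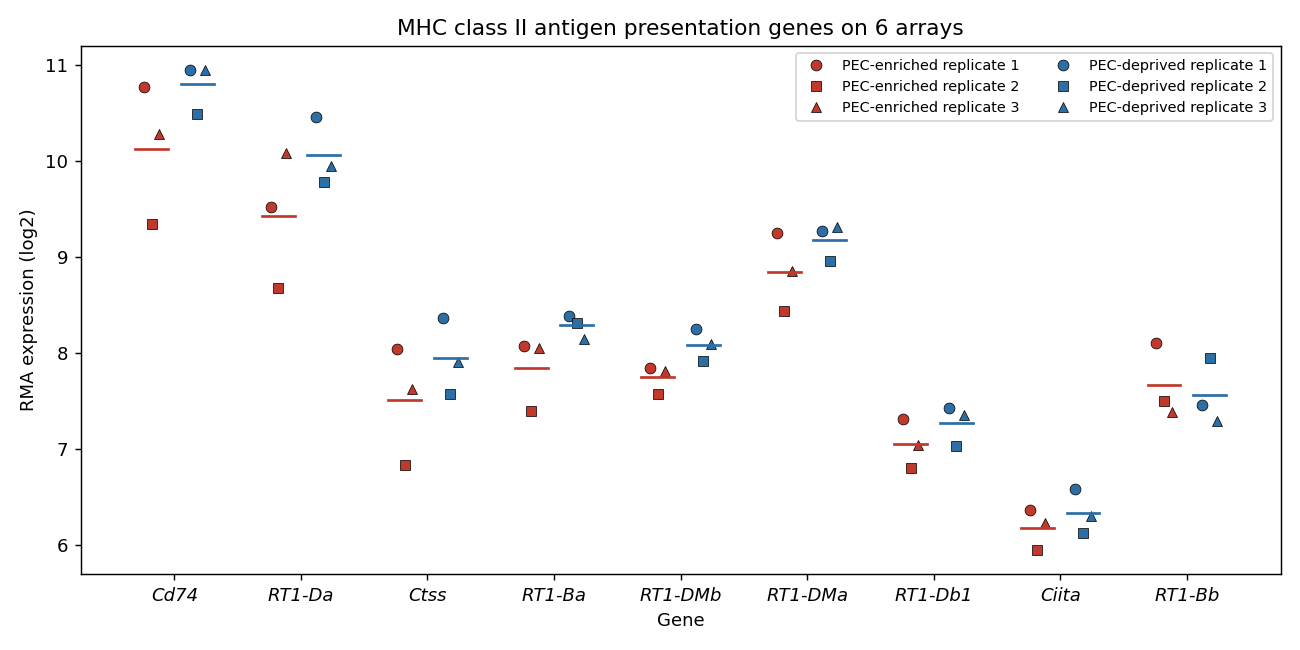
RMA expression (y axis, log2) of the 9 genes (x axis), each point 1 array, with PEC-enriched arrays in red at the left and PEC-deprived arrays in blue at the right of each gene and lines for the means of 3 arrays. PEC-enriched replicate 2 (red square) is the lowest of all 6 arrays in 8 of the 9 genes, and RT1-Ba and RT1-DMb are the genes without overlap between the groups.

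Cd74, the invariant chain, had log2 values of 10.77, 9.35 and 10.28 in PEC-enriched isolates, against 10.95, 10.49 and 10.95 in PEC-deprived isolates. PEC-enriched replicate 2 stood below all other arrays and PEC-enriched replicate 1 above PEC-deprived replicate 2, so the groups overlapped. PEC-enriched isolates averaged 10.13 ± 0.722 and PEC-deprived isolates 10.80 ± 0.267 (SD over 3 arrays in each group). The log2 fold change of -0.67, or 0.63-fold, had a 95% interval from -1.41 to 0.08 (standard error 0.323, limma adjusted p = 0.548). Its SD among PEC-enriched arrays was reached by only 0.37% of probesets, and that among PEC-deprived arrays by 10.6%.

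Ctss, which encodes cathepsin S, the protease that finishes the trimming of the invariant chain in antigen presenting cells, had log2 values of 8.05, 6.84 and 7.63 in PEC-enriched isolates, against 8.37, 7.58 and 7.91 in PEC-deprived isolates. As in Cd74, PEC-enriched replicate 2 was the lowest array and the groups overlapped. For Ctss the log2 fold change was -0.45 with a 95% interval from -1.16 to 0.26 (standard error 0.308, limma adjusted p = 0.73). An SD as large as that of its PEC-enriched arrays, 0.616, was reached by 0.702% of probesets.

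The chains of RT1.D differed in how far the arrays spread. RT1-Da, the alpha chain, had log2 values of 9.52, 8.68 and 10.09 in PEC-enriched isolates, against 10.46, 9.78 and 9.95 in PEC-deprived isolates. PEC-enriched replicate 3 was the highest of its group and lay above PEC-deprived replicates 2 and 3, so the groups overlapped. Between the isolates the log2 fold change was -0.63 with a 95% interval from -1.39 to 0.13 (standard error 0.331, limma adjusted p = 0.6). RT1-Db1, a beta chain, had log2 values of 7.32, 6.81 and 7.05 in PEC-enriched isolates, against 7.43, 7.03 and 7.36 in PEC-deprived isolates. The groups overlapped, and all 6 arrays lay within 0.62, against 1.78 in RT1-Da. The mean difference was -0.21 with a 95% interval from -0.58 to 0.15 (standard error 0.158, limma adjusted p = 0.753). A second beta chain gene that lies beside it, RT1-Db2, had no probeset with 1 symbol and was not analysed here, and closely related chains can share probes, which was not tested.

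The chains of RT1.B had mean differences of opposite sign. RT1-Ba, the alpha chain, had log2 values of 8.08, 7.40 and 8.06 in PEC-enriched isolates, against 8.39, 8.32 and 8.15 in PEC-deprived isolates. All PEC-enriched arrays lay below all PEC-deprived arrays, with PEC-enriched replicates 1 and 3 just under the lowest PEC-deprived array and replicate 2 well below. RT1-Ba had a log2 fold change of -0.44, or 0.738-fold, with a 95% interval from -0.86 to -0.01 (standard error 0.185, limma adjusted p = 0.453, unadjusted p = 0.0444 in limma). RT1-Bb, the beta chain of the same molecule, had log2 values of 8.11, 7.50 and 7.39 in PEC-enriched isolates, against 7.46, 7.95 and 7.30 in PEC-deprived isolates. Here PEC-enriched replicate 1 and PEC-deprived replicate 2 were high and the other 4 arrays lay close together. RT1-Bb had a log2 fold change of 0.10 with a 95% interval from -0.42 to 0.61 (standard error 0.224, limma adjusted p = 0.943), and it was -0.12 without PEC-enriched replicate 1 and -0.04 without PEC-deprived replicate 3.

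DM loads peptide onto the other class II molecules. RT1-DMb, its beta chain, had log2 values of 7.85, 7.58 and 7.82 in PEC-enriched isolates, against 8.25, 7.92 and 8.10 in PEC-deprived isolates. The groups did not overlap, and the spread was similar in both, at 7.75 ± 0.145 for PEC-enriched isolates and 8.09 ± 0.165 for PEC-deprived isolates (SD over 3 arrays in each group). Its log2 fold change of -0.34, or 0.789-fold, had the narrowest 95% interval of the 9 genes, from -0.62 to -0.07 (standard error 0.12, limma adjusted p = 0.361, unadjusted p = 0.0213 in limma). RT1-DMa, the alpha chain, had log2 values of 9.25, 8.44 and 8.86 in PEC-enriched isolates, against 9.27, 8.96 and 9.31 in PEC-deprived isolates. Its mean difference was of the same size, but PEC-enriched replicate 1 lay among the PEC-deprived arrays. RT1-DMa had a log2 fold change of -0.33 with a 95% interval from -0.79 to 0.13 (standard error 0.199, limma adjusted p = 0.669).

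Ciita, the coactivator of the chain genes, had log2 values of 6.37, 5.95 and 6.23 in PEC-enriched isolates, against 6.59, 6.13 and 6.31 in PEC-deprived isolates. The groups overlapped, and all 6 arrays lay within 0.64. Ciita had a log2 fold change of -0.16 with a 95% interval from -0.51 to 0.19 (standard error 0.151, limma adjusted p = 0.819).

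Most of the 9 genes placed the arrays in a similar order. PEC-enriched replicate 2 was the lowest of the 6 arrays in 8 of the 9 genes, against 25% of all probesets. PEC-deprived replicate 1 was the highest array in 6 of the 9, against 15.1% of all probesets. Relative to each gene's mean over the 6 arrays, the 9 genes averaged 0.15, -0.60 and -0.07 in the PEC-enriched arrays, against 0.35, 0.02 and 0.15 in the PEC-deprived arrays. In 7 of the 9, all but RT1-Da and RT1-Bb, the PEC-enriched arrays ranked replicate 1, 3, 2 from high to low, an order found in 14.7% of probesets. The PEC-deprived arrays had that order in 5 of the 9, against 18.1% of probesets, and replicate 2 was the lowest of its group in 8 of the 9 among PEC-enriched arrays and in 7 of the 9 among PEC-deprived arrays. Over the 6 arrays the Pearson correlation of a gene with the mean of the other 8 ran from 0.81 for RT1-Da to 0.97 for Cd74 and Ctss, and for RT1-Bb it was 0.00. These correlations describe arrays that share the difference between the groups and their normalization, and they carry no test.

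Without PEC-enriched replicate 2 the same 8 genes were lower on average, each by less than over 6 arrays, and RT1-Bb stood at 0.18. The median log2 fold change was then -0.13, with Cd74 at -0.27 (limma adjusted p = 0.898), RT1-Da at -0.25, RT1-DMb at -0.26, RT1-Ba at -0.21, RT1-DMa at -0.13, Ctss at -0.11, RT1-Db1 at -0.09 and Ciita at -0.04. Ciita stood at -0.04 without PEC-deprived replicate 1 as well, and at -0.27 without PEC-deprived replicate 2. The count at an unadjusted p under 0.05 was 0 of 9, against 2.77% of all probesets that were lower on these 5 arrays. The count was also 0 without PEC-deprived replicate 1 (median -0.26), against 4.3% of all probesets. It was 1 without PEC-deprived replicate 3 (median -0.34), against 3.57%, and 5 without PEC-enriched replicate 1 (median -0.53), against 6.01%. With any 1 array left out, 0 of the 9 had a limma adjusted p under 0.01.

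**Figure D2:**
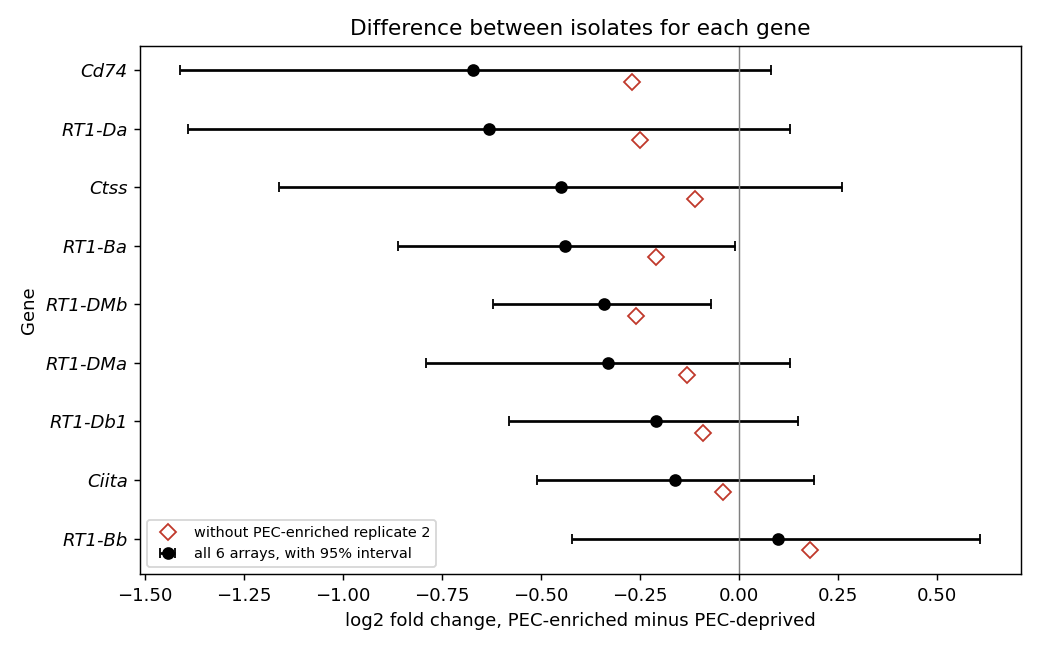
log2 fold change of each gene, PEC-enriched minus PEC-deprived (x axis), for the 9 genes (y axis), with black points and 95% intervals of limma over 6 arrays and open diamonds for the value without PEC-enriched replicate 2. The intervals of RT1-Ba and RT1-DMb end at -0.01 and -0.07, those of the other 7 genes include 0, and the diamonds lie nearer to 0 in each gene but RT1-Bb.

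Leukocyte marker lists had their lowest mean levels on the same array. Some single genes, Itgb2 and Csf1r among them, were lowest in PEC-enriched replicate 3. The 15 measured pan leukocyte genes averaged 7.67, 7.06 and 7.30 in PEC-enriched isolates, against 7.71, 7.58 and 7.77 in PEC-deprived isolates, and all 15 had a lower mean, 7 of them at an unadjusted p under 0.05 and 0 past an adjusted p under 0.01 in limma, against 58.2% of all probesets with a lower mean and 4.66% lower at that unadjusted p. The 7 became 1 without PEC-enriched replicate 2 (2.77% of all probesets), PEC-enriched replicate 3 (4.2%) or PEC-deprived replicate 3 (3.57%). They became 4 without PEC-deprived replicate 1 (4.3%), 5 without PEC-deprived replicate 2 (3.23%) and 10 without PEC-enriched replicate 1 (6.01%). Itgb2, a leukocyte integrin chain, had a log2 fold change of -0.56 (limma adjusted p = 0.382). Ptprc, which encodes the leukocyte common antigen CD45, had log2 values of 8.58, 7.80 and 7.86 in PEC-enriched isolates, against 8.56, 8.49 and 8.56 in PEC-deprived isolates. Its PEC-enriched replicate 1 stood with the PEC-deprived arrays. Of 21 macrophage and monocyte genes, 20 were lower on average. The list had a median log2 fold change of -0.35 (-0.19 without PEC-enriched replicate 2) and summed levels (means over the list) from 6.75 to 7.33 for PEC-enriched isolates and 7.29 to 7.47 for PEC-deprived isolates. Csf1r, the receptor for the macrophage growth factor CSF1, had a log2 fold change of -0.35 (limma adjusted p = 0.702), Ccr2, a chemokine receptor of monocytes, one of -0.64 (limma adjusted p = 0.324), and Laptm5, a lysosomal protein of blood cells, one of -0.67 (limma adjusted p = 0.353). Their part in the class II values was not tested.

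Other cells that can carry class II molecules gave smaller or different values. The 12 dendritic cell genes had a median log2 fold change of -0.05 (0.00 without PEC-enriched replicate 2) and levels of 6.91 to 7.10 for PEC-enriched isolates and 6.99 to 7.15 for PEC-deprived isolates. Clec9a, a receptor of cross-presenting dendritic cells, stood at -0.48 (limma adjusted p = 0.276), and Cd24, which PECs and tubules also express, at 0.65 (limma adjusted p = 0.343). The 8 B cell genes had a median of -0.20 (-0.09 without PEC-enriched replicate 2) and did not overlap as a list, at 5.83 to 6.08 for PEC-enriched isolates and 6.13 to 6.25 for PEC-deprived isolates, with Ms4a1, the gene of CD20, at -0.46 (limma adjusted p = 0.166) and Cr2, a complement receptor, at -0.38 (limma adjusted p = 0.397). Of 15 T and NK cell genes 12 were lower on average. Their median was -0.17, and as a list they did not overlap either, at 5.90 to 6.17 for PEC-enriched isolates and 6.23 to 6.35 for PEC-deprived isolates. Nor did the means of the endothelial, class I and interferon gamma lists described below. Prf1, the pore protein of cytotoxic cells, stood at -0.68 (limma adjusted p = 0.228), Cd4 at -0.51 (limma adjusted p = 0.671) and Cd3e, part of the T cell receptor complex, at -0.08. The defining marker Itgax had no probeset with 1 symbol.

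Endothelial genes were also lower on average, but placed the PEC-enriched arrays differently. All 16 had a lower mean and 13 an unadjusted p under 0.05, against 58.2% and 4.66% of all probesets in that direction, with a median log2 fold change of -0.43 and levels of 10.28 to 10.71 for PEC-enriched isolates and 10.82 to 10.91 for PEC-deprived isolates. The 13 became 4 without PEC-enriched replicate 2 (2.77% of all probesets) or 3 (4.2%) and 7 without PEC-deprived replicate 2 (3.23%) or 3 (3.57%). They became 9 without PEC-deprived replicate 1 (4.3%) and 14 without PEC-enriched replicate 1 (6.01%), and 0 passed an adjusted p under 0.01 in limma. Erg, an endothelial transcription factor, stood at -0.88 (limma adjusted p = 0.159), Flt1, a VEGF receptor, at -0.69 (limma adjusted p = 0.296) and Pecam1, an endothelial adhesion molecule, at -0.50 (limma adjusted p = 0.327). The paper's own test called Erg as lower, and its list holds neither Flt1 nor Pecam1. PEC-enriched replicates 2 and 3 were alike in endothelial genes, at -0.35 and -0.38 relative to all arrays, whereas the class II genes had -0.60 and -0.07 there. Neither podocyte nor mesangial genes shared a direction. The 12 podocyte genes, 5 of them lower on average, had a median of 0.04, which ran from -0.02 without PEC-enriched replicate 3 to 0.13 without PEC-enriched replicate 1. The 9 mesangial genes, 6 of them lower on average, had a median of -0.22, which was -0.07 without PEC-enriched replicate 2 and -0.14 without PEC-deprived replicate 1. As with the class II genes and leukocyte lists, the mesangial list mean was lowest in PEC-enriched replicate 2. It stood there at -0.28 relative to all arrays, against 0.24 and -0.12 in PEC-enriched replicates 1 and 3.

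Of the PEC markers 14 of 15 were higher on average in PEC-enriched isolates, as were all 16 proximal tubule and all 10 thick ascending limb genes. A higher mean was found in 12223 of all 29215 probesets. The exception was Vcam1, at -0.27 and lower without overlap between the groups. Several PEC markers, Cdh6, Prelp, Aldh1a2, Lad1 and Pax8 among them, had been called as higher by the paper on these same arrays. Their direction here is therefore no independent result. The PEC markers had a median log2 fold change of 0.70 and stood highest in PEC-enriched replicate 2, at 0.71 relative to all arrays, against 0.20 and 0.33 in PEC-enriched replicates 1 and 3. The proximal tubule genes also peaked there, at 0.92. Slc34a1, the phosphate transporter of the proximal tubule, had a log2 fold change of 1.00, Miox, an inositol oxygenase, one of 1.3, and Cltrn, collectrin, one of 1.45 (limma adjusted p = 0.363, 0.327 and 0.289). Cldn1, a claudin of Bowman's capsule, stood at 1.38 (limma adjusted p = 0.162), and Umod and Slc12a1 of the thick ascending limb at 2.88 and 2.82 (limma adjusted p = 0.162 and 0.153). By its own test the paper called Cldn1, Umod, Slc12a1, Miox and Cltrn (listed as Tmem27) as higher in PEC-enriched isolates. Slc34a1 was not in its list. PEC-enriched replicate 2 was thus the highest array for the mean of the PEC and of the proximal tubule list. It was the lowest for the mean of the class II genes. The thick ascending limb genes were instead highest in PEC-enriched replicate 1, at 1.07 relative to all arrays, against 0.74 in PEC-enriched replicate 2. The part of epithelial RNA in the class II values was not tested.

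**Figure D3:**
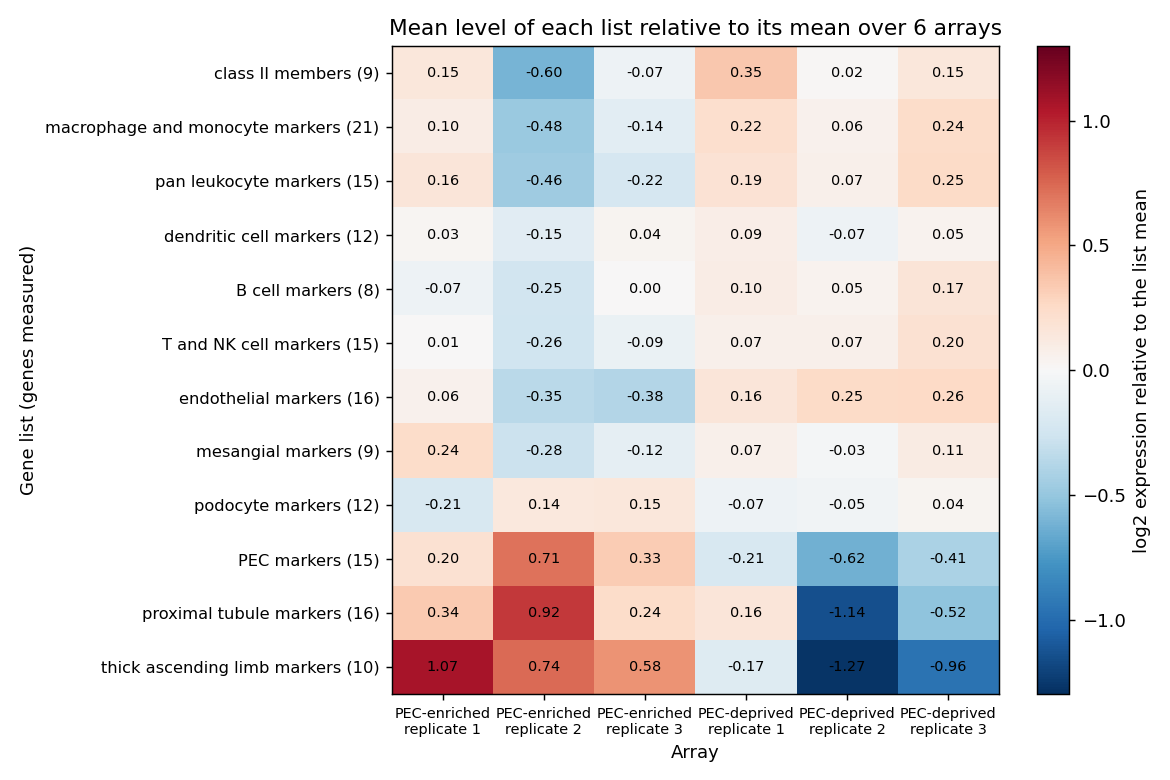
Mean log2 expression of each list in each array relative to the mean of that list over 6 arrays (colour and printed value), with lists down the page, the number of genes measured in brackets, and PEC-enriched arrays left of PEC-deprived arrays. The class II genes stand at -0.60 in PEC-enriched replicate 2, where macrophage markers stand at -0.48, pan leukocyte markers at -0.46 and proximal tubule markers at 0.92.

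Other genes of the class II region lie between the members. In RefSeq's order on chromosome 20, RT1-Da, RT1-Db1, RT1-Ba and RT1-Bb are followed by RT1-DOb, Tap2, Psmb8, Tap1 and Psmb9 and then by RT1-DMb and RT1-DMa, while Cd74, Ciita and Ctss lie on other chromosomes. Of the 5 measured neighbors that are no members, 4 had a lower mean: Psmb8 at -0.53, Tap1 at -0.33, Psmb9 at -0.33 and Tap2 at -0.19. These 4 serve class I presentation, Psmb8 and Psmb9 as subunits of the immunoproteasome and Tap1 and Tap2 as the transporter that brings peptides into the endoplasmic reticulum. RT1-DOb, a chain of DO, which restrains DM and is known mainly from B cells, stood at 0.05 (standard error 0.13). RT1-DOa, the other DO chain, stood at -0.12 and RT1-Ha at -0.03, and with RT1-DOb these 3 further class II genes had a median of -0.03, which was 0.03 without PEC-enriched replicate 2 and -0.14 without PEC-enriched replicate 3.

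The class I pathway as a list had a median log2 fold change of -0.15, with 16 of 19 genes lower on average, 6 of them at an unadjusted p under 0.05 and 7 without overlap between the groups, while 0 passed an adjusted p under 0.01 in limma. The shares of all probesets in that direction were 58.2%, 4.66% and 7.79%. The 6 became 3 without PEC-enriched replicate 2 (2.77% of all probesets) or PEC-deprived replicate 3 (3.57%). They became 7 without PEC-enriched replicate 1 (6.01%) or PEC-deprived replicate 2 (3.23%). Psmb8 had log2 values of 8.01, 7.91 and 8.39 in PEC-enriched isolates, against 8.72, 8.41 and 8.75 in PEC-deprived isolates (log2 fold change -0.53, standard error 0.152, limma adjusted p = 0.291). RT1-N3, a class I gene, had log2 values of 8.19, 7.92 and 8.16 in PEC-enriched isolates, against 8.68, 8.42 and 8.62 in PEC-deprived isolates (log2 fold change -0.49, standard error 0.114, limma adjusted p = 0.21), and RT1-S3, another, stood at -0.49 (limma adjusted p = 0.305). Both had no overlap between the groups, and their PEC-enriched arrays lay closer together than those of Cd74. B2m, the light chain of class I molecules, stood at -0.15 (standard error 0.0994, limma adjusted p = 0.703).

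Genes of interferon gamma signalling and response had the same median as the class II genes. The 20 measured genes, of which 17 were lower on average, had a median log2 fold change of -0.34. Of them 10 had an unadjusted p under 0.05 and 8 did not overlap between the groups, all 8 lower, against 4.66% and 7.79% of all probesets in that direction, while 0 passed an adjusted p under 0.01 in limma. Gbp5, a GTPase induced by interferon gamma, had log2 values of 8.18, 8.14 and 8.10 in PEC-enriched isolates, against 8.63, 8.48 and 8.93 in PEC-deprived isolates (log2 fold change -0.54, standard error 0.125, limma adjusted p = 0.207). Isg15, a ubiquitin-like protein of the interferon response, stood at -0.49 (limma adjusted p = 0.458) with overlapping groups. Without PEC-enriched replicate 2 the median of the list was -0.27, against -0.13 for the class II genes. At an unadjusted p under 0.05, 7 of 20 genes were then lower, against 0 of 9 class II genes and 2.77% of all probesets. With single arrays left out the count ran from 6 of 20 without PEC-deprived replicate 3 (3.57%) to 12 without PEC-deprived replicate 2 (3.23%). Endothelial and leukocyte markers were lower on the same arrays, and their part was not tested.

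The proteins that act at the class II promoters had smaller differences. Their median was -0.08, with 12 of 16 measured genes lower on average and 4 lower at an unadjusted p under 0.05, against 58.2% and 4.66% of all probesets. The median was -0.13 without PEC-enriched replicate 1 and -0.05 without PEC-deprived replicate 2. The 4 became 1 without any of PEC-enriched replicates 2 and 3 and PEC-deprived replicates 2 and 3 (2.77% to 4.2% of all probesets). They became 2 without PEC-deprived replicate 1 (4.3%) and 5 without PEC-enriched replicate 1 (6.01%). The 4 were Irf1, a factor that acts on the Ciita promoter, at -0.40 (standard error 0.111, limma adjusted p = 0.275), Creb1, a factor of the X box region, at -0.26 (limma adjusted p = 0.426), Irf2 at -0.25 (limma adjusted p = 0.448) and Nfya, a subunit of NF-Y, at -0.23 (limma adjusted p = 0.451). The RFX subunits had log2 fold changes of 0.13 for Rfx5 and -0.09 for Rfxank, and Rfxap had log2 values of 8.67, 8.50 and 8.44 in PEC-enriched isolates, against 8.59, 8.46 and 8.55 in PEC-deprived isolates. The 6 measured costimulatory genes had a median of -0.08, but 0.02 without PEC-enriched replicate 2, with Cd83 at -0.33 (limma adjusted p = 0.538) and Cd40 at -0.20 (limma adjusted p = 0.734), both of them expressed by activated antigen presenting cells.

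Most endosomal processing genes had means of the opposite sign to those of the class II genes. Higher means were found in 13 of 17 measured genes, with a median log2 fold change of 0.17, 5 genes at an unadjusted p under 0.05 and 6 without overlap, against 5.77% and 7.24% of all probesets in that direction. Without PEC-enriched replicate 2 the median was 0.09 and the 5 became 2. The count was 4 to 6 with any other array left out, and 0 passed an adjusted p under 0.01 in limma. Ctsc, cathepsin C, had log2 values of 9.25, 9.27 and 8.65 in PEC-enriched isolates, against 8.43, 7.56 and 8.01 in PEC-deprived isolates (log2 fold change 1.06, standard error 0.242, limma adjusted p = 0.205). The paper's own test called Ctsc as higher. Lgmn, the asparaginyl endopeptidase legumain, had log2 values of 10.77, 11.17 and 10.37 in PEC-enriched isolates, against 10.28, 9.33 and 10.09 in PEC-deprived isolates (log2 fold change 0.87, standard error 0.273, limma adjusted p = 0.322). For Ctsc as for Lgmn, PEC-enriched replicate 2 was the highest array and PEC-deprived replicate 2 the lowest, the places that the same arrays held in proximal tubule genes. Ctss thus differed in sign from Ctsc, Lgmn, Ctsh (0.71), Ctsl (0.23), Ctsb (0.21) and Ctsd (0.12). It shared its sign with the cathepsin genes Ctsz (-0.19) and Ctse (-0.13), which were also lowest in PEC-enriched replicate 2. Marchf1, the ligase that removes class II molecules from the surface of antigen presenting cells, was lower without overlap (log2 fold change -0.28, limma adjusted p = 0.517). Its log2 values were 5.71, 5.29 and 5.71 in PEC-enriched isolates, against 5.93, 5.76 and 5.87 in PEC-deprived isolates. Lysosomal proteases are also abundant in proximal tubules, whose markers were higher on the same arrays, and their part was not tested.

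**Figure D4:**
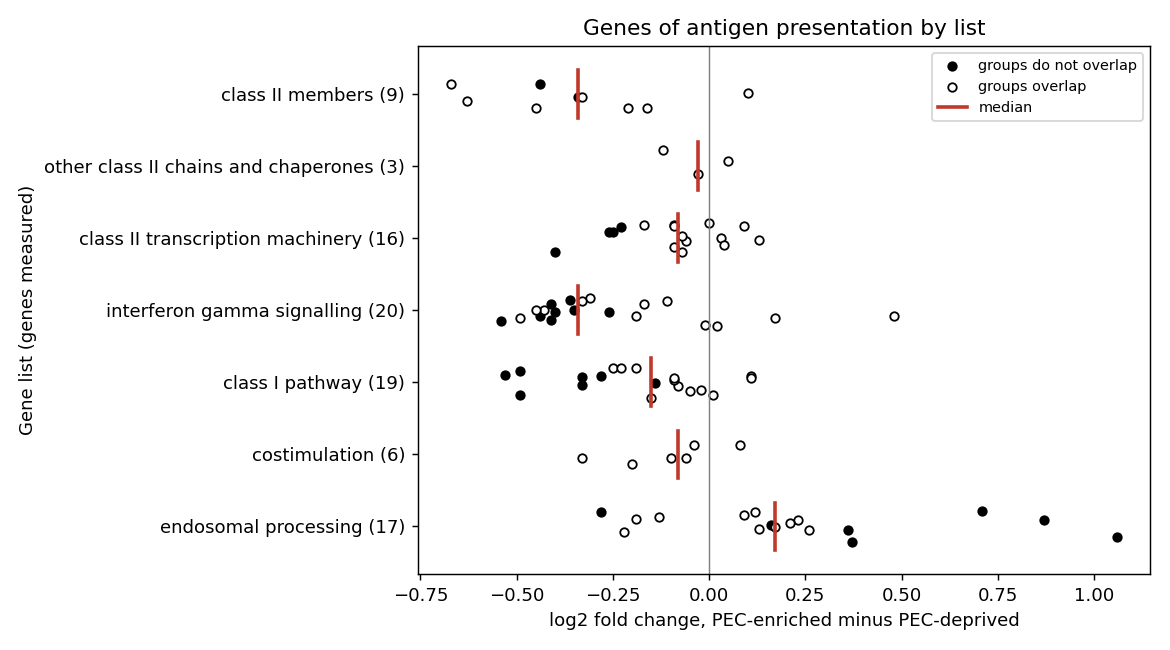
log2 fold change of each measured gene, PEC-enriched minus PEC-deprived (x axis), by list (y axis, with the number of genes measured), filled where the groups do not overlap and open where they do, with red lines at the medians. Class II and interferon gamma genes have medians of -0.34, and endosomal processing genes one of 0.17 with Ctsc at 1.06.

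Among the 3370 genes whose SD over the 6 arrays was at least 0.2, which include all 9 members, the 10 whose values were most like the mean of the 9 were RT1-CE5, Cd300a, Hcls1, Grin2d, Lpl, Krtap15-1, C1r, Tmem132d, Actn2 and Rem1. Their Pearson correlations with that mean over 6 arrays ran from 0.969 to 0.987 and are descriptive, since they were selected as the highest over so few arrays. RT1-CE5, a class I gene, had log2 values of 7.93, 7.28 and 7.76 in PEC-enriched isolates, against 8.21, 7.78 and 8.04 in PEC-deprived isolates. Hcls1, a Src substrate of blood cells, had log2 values of 6.64, 5.84 and 6.47 in PEC-enriched isolates, against 6.73, 6.44 and 6.66 in PEC-deprived isolates. Lpl, lipoprotein lipase, had a lowest log2 value of 8.64 and a highest of 10.27 in PEC-enriched isolates, against 10.11 and 10.51 in PEC-deprived isolates. In all 10 genes PEC-enriched replicate 2 was the lowest and PEC-deprived replicate 1 the highest array. Cd300a is an inhibitory receptor of leukocytes and C1r a protease of the complement cascade, and 1 of the 10, Hcls1, was in a leukocyte marker list.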

How the data were processed

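Total RNA of 6 glomerular isolates was hybridized to Affymetrix whole-transcript rat arrays. The authors adjusted the background, quantile normalized log-transformed intensities and summarized probesets with RMA, and the deposited values were read as log2, the scale RMA gives. The sources used here give no software version, genome build or probeset definition. 0 columns of samples were left out. Symbols came from the 2016 platform annotation, and probesets with several symbols (323) or none (13582) were not named. A gene was its brightest probeset. limma 3.58.1 in R 4.3.3 (lmFit, eBayes, two-sided, no covariate) was run on all probesets with Benjamini-Hochberg adjustment, after being tested on simulated data. Intervals are 95% intervals of that fit. Because the study used a Bayesian form of the t-test, a regularised t-test (prior weight 10) was run as an alternative. Other alternatives were the replicate block, an intensity trend, array weights, filters, scalings and each array left out. Members and lists were chosen with earlier results of these data known. Named genes were all members, the 2 genes with the largest difference in each pathway, leukocyte, endothelial and tubular list, the 10 genes most like the members, and defining markers. Genes named beside these, such as the MHC neighbors, RFX subunits, B2m, Vcam1, Ctsb, Ctsd, Ctse, Ctsh, Ctsl, Ctsz and Marchf1, were chosen after their values were seen. The number of arrays limits the precision. Figures used matplotlib 3.10.9.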

Additional observations from a re-analysis of the deposited data

How the results depend on the processing

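No class II gene passed an adjusted p under 0.01 in limma under any setting, and 0 passed at 0.05 in limma or at 0.01 by the regularised t-test, which called 334 probesets (1.14%). limma called 1 probeset of all without PEC-deprived replicate 1 and 0 under the other settings. The range of adjusted p over settings and arrays left out was 0.118 to 0.898 for Cd74 and 0.198 to 0.797 for RT1-DMb. Each of the 9 genes kept its direction under the other fits and scalings, with Ciita not among the probesets above the median level. With arrays left out, only RT1-Bb reversed, to -0.12 without PEC-enriched replicate 1 and -0.04 without PEC-deprived replicate 3 (highest 0.29), and the median of the 9 ran from -0.53 to -0.13. The count lower at an unadjusted p under 0.05 was 6 with the replicate block (4.92% of all probesets), 5 by the regularised t-test (5.46%) and 1 with cyclic loess (4.17%), and 0 to 5 with arrays left out (2.77% to 6.01%). The count without overlap was 2 to 5 with arrays left out, 4 without PEC-enriched replicate 1 (15% of all probesets) and 5 without PEC-deprived replicate 2 (12.6%). Whether equal replicate numbers mark the same rat is not stated. Over all probesets, deviations from the group means correlated at -0.0287, 0.0519 and 0.1 for replicates 1, 2 and 3. For unequal numbers these correlations ran from -0.135 to 0.0827. Deviations of 3 arrays from their own mean constrain each other, so these values cannot show if the numbers mark pairs. The main fit used no pairs. With the numbers taken as pairs, 7 of the 9 genes (18.6% of all probesets) were lower in PEC-enriched isolates at all 3 numbers. The cause of the higher count with the block was not tested. Of the 6 pathway medians, 2 changed sign without PEC-enriched replicate 2, the further class II chains to 0.03 and costimulation to 0.02. With arrays left out, the medians ran from -0.41 to -0.27 for interferon gamma genes and from -0.18 to -0.14 for the class I pathway. They ran from 0.09 to 0.23 for endosomal processing and from -0.13 to -0.05 for the proteins at the class II promoters.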
